A study of Homo sapiens with 4 samples.

Results

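Transcripts of 9 genes that stand behind neuroblastoma surface therapy were followed in SK-N-AS, an established cell line from a human neuroblastoma. The genes are the GD2 synthesis enzymes B4GALNT1 and ST8SIA1 and the 7 surface antigen genes CD276, GPC2, L1CAM, NCAM1, DLK1, CD24 and CD47. They were chosen by name, as 9 of the 17687 genes with a named probe set, and each had 1 probe set. RNA was measured on Affymetrix whole-transcript arrays. One group had received 30 µM BG-P400-TAT for 48 h, a compound the series title describes as directed at the norepinephrine transporter and integrin αvβ3. The control group, called untreated here, received phosphate-buffered saline for the same time. Each group had 2 arrays, described as biological replicates of this 1 line, but nothing in the labels says how far the cultures of a group were kept apart. All p-values therefore rest on the spread of these arrays alone, which may be partly technical.

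GD2 is a disialoganglioside, a sugar-bearing membrane lipid carried by most neuroblastomas and bound by the therapeutic antibody dinutuximab. It is built from lactosylceramide. ST3GAL5 adds a sialic acid to give GM3, ST8SIA1 adds a further one to give GD3, and B4GALNT1 adds N-acetylgalactosamine to give GD2. The array reads the enzymes' mRNA and not the lipid. The surface antigens are proteins targeted by antibodies, drug conjugates or engineered T cells in neuroblastoma, except that CD24 and CD47 are better known as signals that restrain phagocytosis by macrophages.

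ST8SIA1 and CD47 were the members with the lowest and the highest values relative to the 95th percentile of the negative-control probe sets, and the 250 bases before their annotated starts are shown because both are dense in CpG pairs although one transcript was below that percentile and the other above it. The sequences are RefSeq's on GRCh38.p14, chr12:22334708-22334957 and chr3:108091032-108091281, both on the minus strand, in the direction of transcription, with each CpG in capitals.
ST8SIA1: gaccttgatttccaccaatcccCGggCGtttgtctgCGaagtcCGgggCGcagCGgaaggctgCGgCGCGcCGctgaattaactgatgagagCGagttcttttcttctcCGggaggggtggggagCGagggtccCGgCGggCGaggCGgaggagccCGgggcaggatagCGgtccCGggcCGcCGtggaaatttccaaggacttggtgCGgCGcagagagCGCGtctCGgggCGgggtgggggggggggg
CD47: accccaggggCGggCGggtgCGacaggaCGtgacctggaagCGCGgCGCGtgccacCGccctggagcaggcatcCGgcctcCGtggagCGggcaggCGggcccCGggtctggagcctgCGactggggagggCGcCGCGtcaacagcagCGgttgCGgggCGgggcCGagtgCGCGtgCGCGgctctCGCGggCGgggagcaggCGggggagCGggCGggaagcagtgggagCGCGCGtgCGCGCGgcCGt

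The ST8SIA1 window held 28 CpG pairs and the CD47 window 39, against a median of 11 over 27303 promoter windows of the same length. Their ratios of observed to expected CpG were 1.02 and 1.04, where the median window had 0.556. Of the 9 members, CD276, GPC2, L1CAM and CD24 were also matched in the promoter table, and B4GALNT1, NCAM1 and DLK1 were not. The ratio was 0.711 for CD276, 0.745 for GPC2, 0.769 for CD24 and 0.329 for L1CAM. All 6 matched windows held the GC box GGGCGG, read on both strands, which 42.3% of all windows hold. Their GC content was 62.4 to 80.8%, against a median of 58.0% over all windows, and no comparison was made at like GC content. Copies of GGGCGG numbered 1 for ST8SIA1, 6 for CD47, 7 for CD276, 3 for GPC2, 2 for L1CAM and 1 for CD24. The TATA box letters TATAAA, present on either strand of 11.1% of all windows, were in none of the 6. The same held for the AP-1 letters TGANTCA, present in 6.60% of all windows, and for the E-box letters CACGTG, present in 6.49%. Neither methylation nor factor binding was measured in this series.

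The arrays were close to one another in overall level, with median log2 expression between 6.49 and 6.51. The 95th percentile of the 612 negative-control probe sets, used here as the limit for levels, lay between 7.19 and 7.64 on the single arrays and at 7.21 for the mean of the untreated arrays. Untreated replicate 2 had the highest limit and stood apart, with a median absolute log2 difference of 0.237 to 0.244 to the other arrays, against 0.193 to 0.208 among those. Genes with a named probe set are called measured, whether above this limit or not. Of the markers of adrenergic neuroblastoma cells, 10 of 13 measured were above the limit on all 4 arrays, with TH and DBH, the catecholamine synthesis enzymes, below it on every array. Of the markers of mesenchymal neuroblastoma cells, 12 of 16 were above it. All 13 measured markers of endothelial, epithelial and Schwann cells were below it on every array, and so were 4 of 6 leukocyte markers, with PTPRC and CD68 above it.

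Both GD2 synthesis enzymes were below the limit on every array, in untreated and in treated cells. B4GALNT1, which encodes the GM2/GD2 synthase, had log2 expression of 4.37 and 4.15 in untreated and 4.55 and 4.39 in treated cells, with replicate 1 named first here and throughout. ST8SIA1, which encodes the GD3 synthase, had 3.12 and 2.91 in untreated and 3.74 and 3.32 in treated cells. Both treated values of each gene were above both untreated values, but by less than separates any of them from the limit. In untreated cells B4GALNT1 lay 2.95 log2 units below the limit and ST8SIA1 4.20 below it. Of the 612 negative-control sets, 247 were brighter than B4GALNT1 and 513 brighter than ST8SIA1. No fold is given between values that all lie in the range of the negative controls. The limma adjusted p was 0.971 for B4GALNT1 and 0.948 for ST8SIA1, whose unadjusted p was 0.0503.

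**Figure D1:**
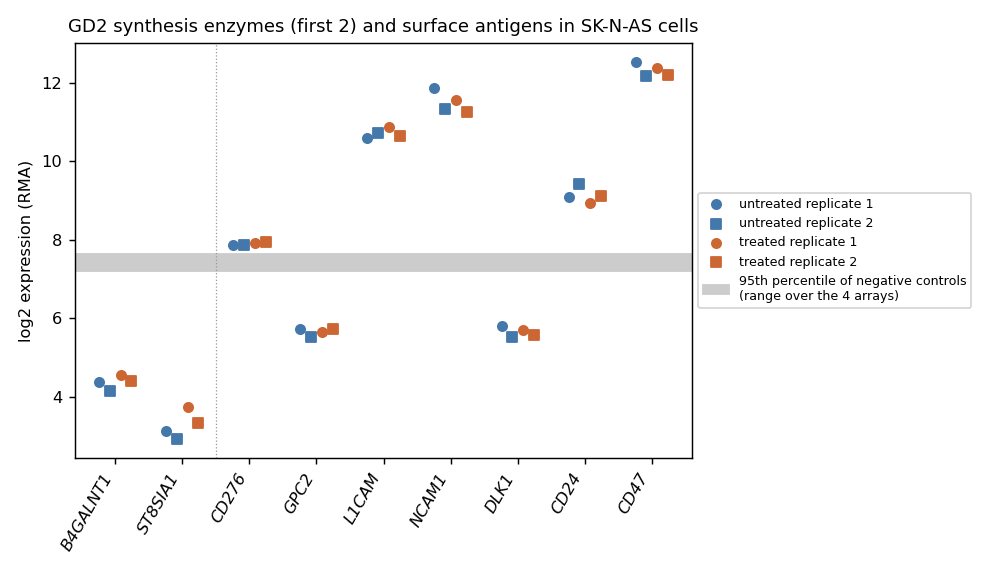
Log2 expression of the 9 members on each of the 4 arrays, with untreated arrays in blue, treated arrays in orange, circles for replicate 1 and squares for replicate 2. The grey band spans the negative-control limits of the 4 arrays, 7.19 to 7.64. B4GALNT1, ST8SIA1, GPC2 and DLK1 lie under the band on every array, and the other 5 genes lie over it. Heights of different genes are not comparable, since each probe set has its own response.

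Most steps that lead to the GD2 precursor were above the limit. Of 15 genes for ceramide and glycolipid synthesis and for sialic acid supply, 14 were above the limit on all 4 arrays. UGCG, which adds the glucose that starts glycolipid synthesis, was above it on 3, at 8.01 and 7.43 on the untreated and 7.59 and 7.81 on the treated arrays. ST3GAL5, which makes GM3, had 9.01 and 9.33 on the untreated and 9.03 and 8.91 on the treated arrays, so its groups overlapped. ST3GAL5 was thus above the limit on every array, and ST8SIA1, the next enzyme of the chain, below it on every array. Each probe set has its own response, so this does not compare the amounts of these transcripts. A value below the limit does not show that a transcript was absent.

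Of the 11 genes for steps that lead beyond or beside GD2, 5 were above the limit on all arrays and 6 on none. B3GALT4, which extends GD2 to GD1b, was among the 6, with 4.98 and 4.57 on the untreated and 3.97 and 4.63 on the treated arrays. ST3GAL2, ST8SIA5 and ST8SIA3, which add sialic acid, were below the limit too. B3GNT5, which leads lactosylceramide into the lacto-series instead, was above it, at 10.06 and 10.25 in untreated and 9.96 and 9.78 in treated cells. CASD1, the sialic acid O-acetyltransferase that can modify GD2, was above the limit on every array. Of the 8 measured breakdown genes, HEXA, GALC, PSAP and ASAH1 were above the limit on all arrays, and the sialidase genes NEU2, NEU3 and NEU4 and the activator gene GM2A were below it on all.

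**Figure D2:**
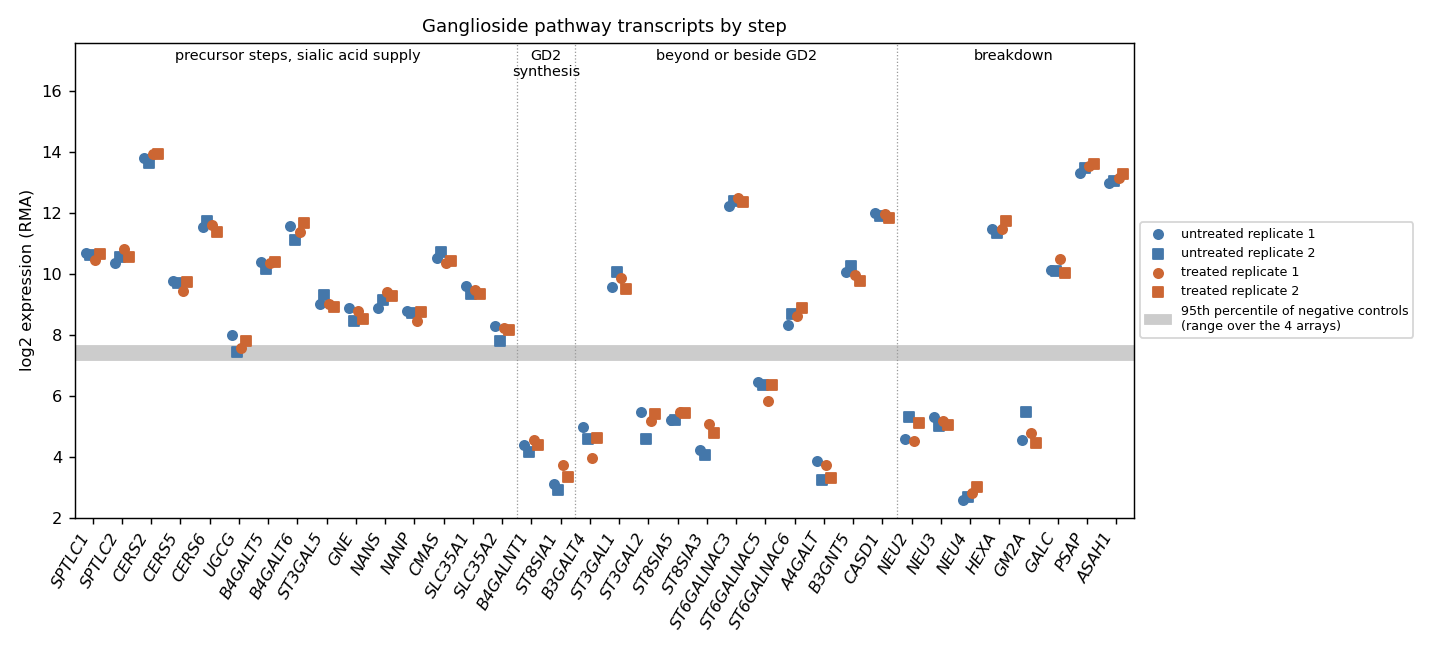
Log2 expression on the 4 arrays of ganglioside genes, in the order of precursor steps and sialic acid supply, GD2 synthesis, steps beyond or beside GD2, and breakdown. Colours, symbols and the grey band are as in the plot of the 9 members. Of the 15 precursor and supply genes 14 lie over the limit on every array, and B4GALNT1 and ST8SIA1 lie under it.

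None of these ganglioside genes passed the test between treated and untreated cells. Across all 21448 probe sets tested, limma called 0% (0 probe sets) at an adjusted p under 0.05, and 5.08% at an unadjusted p under 0.05. Of the 14 precursor and supply genes above the limit 6 were higher in treated cells, with a median log2 difference of -0.041, where all probe sets above the limit had a median of 0.034. NANS, the sialic acid synthase, had the smallest p of them, at 8.88 and 9.15 in untreated and 9.42 and 9.28 in treated cells. Its log2 difference was 0.34 (95% interval -0.13 to 0.80; limma adjusted p = 0.948). CERS2, a ceramide synthase, differed by 0.22 (interval -0.22 to 0.65) and SPTLC2, a subunit of the serine palmitoyltransferase, by 0.23 (interval -0.24 to 0.70). All 4 breakdown genes above the limit had higher means in treated cells, with ASAH1, acid ceramidase, at 0.20 (interval -0.23 to 0.64), HEXA, a hexosaminidase subunit, at 0.20 (interval -0.27 to 0.67) and PSAP, the saposin precursor, at 0.17 (interval -0.27 to 0.61). Without treated replicate 1, 3 of the 4 were higher. With all arrays kept, 57.9% of all probe sets above the limit were higher in treated cells. Beside GD2, B3GNT5 had a log2 difference of -0.28 (interval -0.74 to 0.18), ST6GALNAC6 of 0.26 (interval -0.25 to 0.77) and ST6GALNAC3 of 0.12 (interval -0.33 to 0.56), and the latter pair encode sialyltransferases. With an array left out the differences were 0.20 to 0.47 for NANS, 0.14 to 0.29 for CERS2, 0.098 to 0.36 for SPTLC2, 0.14 to 0.26 for ASAH1, 0.065 to 0.34 for HEXA and 0.090 to 0.25 for PSAP. They were -0.38 to -0.19 for B3GNT5, 0.074 to 0.44 for ST6GALNAC6 and 0.041 to 0.19 for ST6GALNAC3. Of these genes, named for the smallest p in their lists, only HEXA, ST6GALNAC6 and ST6GALNAC3 had overlapping groups. For the rest, leaving out an array could not turn the sign. Among all list genes above the limit, groups did not overlap for 4 of 14 precursor and supply genes. The same held for 1 of 5 genes beyond or beside GD2 and 2 of 4 breakdown genes. Over all probe sets above the limit the share was 31.8%.

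Among the surface antigens, CD276, L1CAM, NCAM1, CD24 and CD47 were above the limit on all 4 arrays, and GPC2 and DLK1 on none. By the untreated mean alone, 5 of the 9 members were above the limit, as were 47.4% of all named genes. No member passed the test: limma called 0 of the 9 at an adjusted p under 0.05, and 0 at an unadjusted p under 0.05. At that unadjusted threshold 1 member, ST8SIA1, passed in 6 of 17 alternative settings, namely quantile normalization, median centring, cyclic loess, the replicate block, leaving out treated replicate 2, and means over probe sets. An exact permutation test of 1 gene over these 4 arrays has 6 arrangements, so its smallest possible two-sided p is 0.333. In RNA from bulk cultures, fewer cells of a type and less RNA per cell cannot be told apart.

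CD276, which encodes the immune checkpoint ligand B7-H3, had log2 expression of 7.87 and 7.85 in untreated and 7.91 and 7.94 in treated cells. The arrays of a group agreed closely and both treated values were above both untreated ones, yet all 4 lay within 0.088 log2 units. The limma log2 difference was 0.066 (95% interval -0.36 to 0.49, or 0.779- to 1.41-fold; adjusted p = 0.997). CD276 was the 1 member of the 5 above the limit whose groups did not overlap, where 31.8% of all probe sets above the limit did not. It was also the one nearest to the limit, 0.21 above it on untreated replicate 2 and 0.55 to 0.72 on the other arrays.

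Of 9 other B7 family genes, CD274, the PD-L1 gene, was the only one above the limit on all arrays. It had 8.02 and 8.61 in untreated and 8.51 and 8.15 in treated cells, so the groups overlapped, and its log2 difference of 0.013 (interval -0.60 to 0.63) was negative under cyclic loess or quantile normalization, and when untreated replicate 1 or treated replicate 1 was dropped. With an array left out it ranged from -0.28 to 0.31. NCR3LG1, which encodes B7-H6, was above the limit on 1 array, and PDCD1LG2, VTCN1, HHLA2, CD80, CD86, ICOSLG and VSIR were above it on none.

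GPC2, a heparan sulfate-bearing glypican of developing neurons, was below the limit, with 5.72 and 5.53 in untreated and 5.64 and 5.72 in treated cells. Its groups overlapped, and 110 of the 612 negative-control sets were brighter than it in untreated cells. Of the other glypican and syndecan genes, GPC3, GPC6, SDC1, SDC2, SDC3 and SDC4 were above the limit on all arrays, while GPC1, GPC4 and GPC5 were above it on none. Of those 6, 5 had higher means in treated cells (4 after quantile normalization or cyclic loess) and none passed. Of all probe sets above the limit, 57.9% were higher in treated cells. SDC1, which encodes a syndecan, had 8.39 and 8.07 in untreated and 8.46 and 8.75 in treated cells, a log2 difference of 0.38 (interval -0.13 to 0.89). SDC3 differed by 0.30 (interval -0.19 to 0.79) and SDC4 by 0.26 (interval -0.19 to 0.71), and their limma adjusted p-values were 0.949 and 0.954. Leaving out an array gave 0.22 to 0.54 for SDC1, 0.11 to 0.49 for SDC3 and 0.15 to 0.37 for SDC4. It could not turn these signs, since the groups of each gene did not overlap. SDC1, SDC3 and SDC4 were named for the smallest p in their list. Groups did not overlap for 4 of its 6 genes above the limit, against 31.8% of all probe sets above it.

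L1CAM, a neural adhesion molecule, was well above the limit, with 10.60 and 10.71 on the untreated and 10.88 and 10.64 on the treated arrays. Treated replicate 2 lay between the untreated arrays, so the groups overlapped. The log2 difference was 0.10 (interval -0.35 to 0.56, or 0.783- to 1.48-fold; limma adjusted p = 0.997), and it was -0.016 without treated replicate 1. NRCAM, another member of the L1 family, differed by 0.065 (interval -0.40 to 0.52), a sign that turned without untreated replicate 2 or treated replicate 1. CHL1, its close relative, was below the limit on every array and NFASC was above it on 2. ADAM10, a protease that sheds L1CAM, had 12.62 and 12.53 in untreated and 12.40 and 12.34 in treated cells, a log2 difference of -0.21 (interval -0.64 to 0.23; limma adjusted p = 0.963). ADAM17, a protease that sheds DLK1, differed by -0.059 (interval -0.49 to 0.37), or by -0.10 to -0.012 when single arrays were dropped.

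NCAM1, the adhesion molecule also known as CD56, had the widest range over the arrays among the members above the limit. It stood at 11.86 and 11.32 in untreated and 11.55 and 11.26 in treated cells. The untreated arrays differed by 0.54, more than the group means did. The log2 difference was -0.19 (interval -0.77 to 0.39, or 0.588- to 1.31-fold; limma adjusted p = 0.985), with 0.081 when untreated replicate 1 was left out and -0.46 when untreated replicate 2 was. Over the 4 arrays, the genes with the most similar mean-centred values among 7651 above the limit were GOLGB1, which encodes a Golgi matrix protein, ZFC3H1, which encodes a nuclear RNA decay factor, and ZNF28, a zinc finger gene. Their Euclidean distances to NCAM1 were 0.022, 0.032 and 0.044 log2 units, and as a description over 4 arrays this carries no test.

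NCAM1 protein can carry polysialic acid, added by ST8SIA2 and ST8SIA4. ST8SIA2 was below the limit on every array. ST8SIA4 was above it, with 8.29 and 8.16 in untreated and 7.73 and 7.83 in treated cells. Its treated values lay below its untreated ones, and the log2 difference was -0.44 ± 0.19 (SE) with an interval from -0.88 to -0.0058. The unadjusted limma p was 0.0478 and the adjusted p 0.948, so ST8SIA4 did not pass. With an array left out the difference was -0.51 to -0.38, where groups that do not overlap fix the sign in advance. Among the 94 measured genes of the 11 related lists, 5 (5.32%) had an unadjusted p under 0.05, against 5.08% of all probe sets. ST8SIA4 was the 1 of these 5 above the limit on all arrays, and the others were ST8SIA3, GPC5, HHLA2 and NFASC. Of the other adhesion genes, ALCAM, an activated leukocyte adhesion molecule, differed by -0.17 (interval -0.60 to 0.26) and CNTN1, a contactin, by -0.081 (interval -0.58 to 0.42), the latter with its sign turned without treated replicate 2.

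DLK1, a membrane-bound Notch-related ligand expressed from an imprinted locus, was below the limit on every array. It had 5.81 and 5.52 in untreated and 5.71 and 5.57 in treated cells, with overlapping groups, and 105 of the 612 negative-control sets were brighter in untreated cells. DLK2, NOTCH1, NOTCH2, NOTCH3 and RTL1, a neighbour of DLK1 in the imprinted cluster, were below the limit on all arrays as well.

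CD24, a small glycosylphosphatidylinositol-anchored sialoglycoprotein, had 9.10 and 9.43 in untreated and 8.93 and 9.11 in treated cells. Untreated replicate 2 was the highest array, and treated replicate 2 lay just above untreated replicate 1, so the groups overlapped. The log2 difference was -0.25 (interval -0.73 to 0.24, or 0.601- to 1.18-fold; limma adjusted p = 0.963). It was -0.41 without untreated replicate 1 and -0.081 without untreated replicate 2. CD24 has near-identical processed copies elsewhere in the genome, so its signal may not come from 1 locus. SIGLEC10, the receptor that reads CD24 on macrophages, and SELP, which encodes P-selectin, a CD24-binding adhesion receptor, were below the limit on every array.

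CD47, the ligand of the macrophage receptor SIRPα, was further above the limit than any other member, and none of the 612 negative-control sets was brighter. It had 12.54 and 12.18 in untreated and 12.38 and 12.19 in treated cells. Both treated values lay between the untreated ones. The log2 difference was -0.075 (interval -0.57 to 0.42, or 0.672- to 1.34-fold; limma adjusted p = 0.997). Its sign turned without untreated replicate 1 (0.10) and without treated replicate 2 (0.019). QPCTL, the enzyme that forms the terminal pyroglutamate through which CD47 binds SIRPα, was below the limit, as was its relative QPCT. THBS1, a secreted ligand of CD47, differed by 0.18 (interval -0.37 to 0.73) and SIRPA itself by 0.086 (interval -0.50 to 0.67). Both signs turned without untreated replicate 2, and that of THBS1 also without treated replicate 2. CALR, a phagocytic signal that opposes CD47 when it reaches the surface, differed by 0.16 (interval -0.27 to 0.59).

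**Figure D3:**
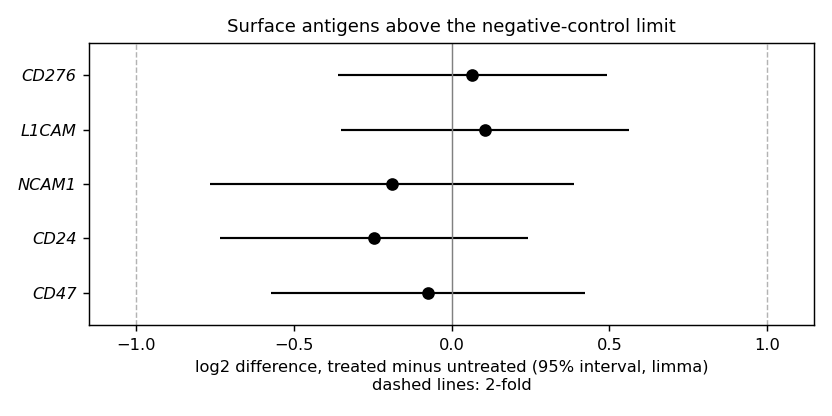
Log2 difference between treated and untreated cells of the 5 members above the limit on all arrays, as points with 95% intervals from limma (n = 2 arrays per group). Each interval spans 0 and lies within the dashed lines at 2-fold in this fit, the widest being that of NCAM1, from -0.77 to 0.39.

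For the 5 surface antigens above the limit, 2 of the differences were positive and 3 negative, where 57.9% of all probe sets above the limit were higher and 42.1% lower in treated cells. The 5 had a median of -0.075, against 0.034 over all those probe sets. All 5 intervals lay within 2-fold in both directions, as did 97.1% of those of all 8705 probe sets above the limit. Over 17 alternative settings this stayed so for CD276, L1CAM and CD47. It was lost for NCAM1 in 4 settings, with its widest interval from -1.50 to 1.12 (0.353- to 2.18-fold) without variance moderation, and for CD24 in 3, with a lowest bound of -1.05 (0.482-fold). The highest bound for L1CAM over the settings was 0.87 (1.83-fold). In 4 of the 5 the gap between the untreated arrays was larger than the difference between the groups, as it was in 65.2% of all probe sets above the limit. The exception was CD276. Over all 9 members the groups did not overlap for B4GALNT1, ST8SIA1 and CD276, 3 of 9, where 33.1% of all probe sets did not.

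Other genes whose products are targeted in neuroblastoma gave no call either. Of 15 measured, 9 were above the limit on all arrays, among them SLC6A2, the transporter that takes up meta-iodobenzylguanidine, and 5 were above it on none, namely ALK, the somatostatin receptor genes SSTR1 and SSTR2, PROM1 and CEACAM1. PTK7, a pseudokinase receptor, had 9.20 and 9.45 in untreated and 9.85 and 9.59 in treated cells, a log2 difference of 0.39 (interval -0.09 to 0.88; limma adjusted p = 0.948). FAP, a surface protease, had 12.10 and 11.95 in untreated and 11.85 and 11.74 in treated cells, a difference of -0.23 (interval -0.67 to 0.22). TNFRSF10B, a death receptor, differed by 0.34 (interval -0.10 to 0.77). With an array left out FAP differed by -0.31 to -0.15. These 3 genes, named for their small p, and ROR1 and EGFR had groups that did not overlap, 5 of the 9 above the limit, against 31.8% of all probe sets above it. Treated means were higher for 4 of the 9 and lower for 5, and none passed.

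**Figure D4:**
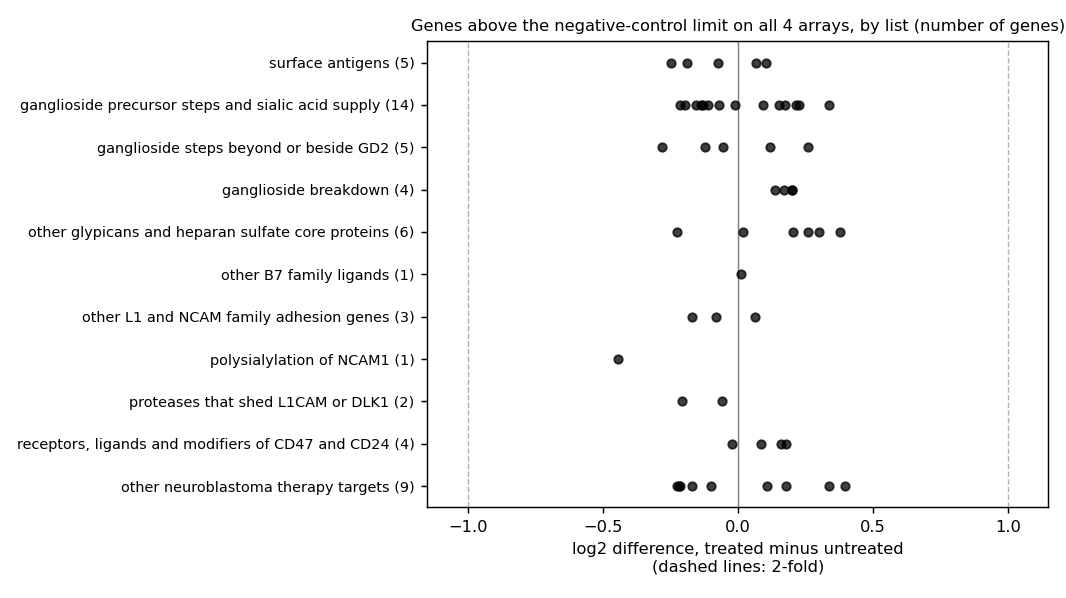
Log2 difference between treated and untreated cells of each gene above the limit on all 4 arrays, by gene list, with the number of genes in brackets and dashed lines at 2-fold. The surface antigens lie between -0.25 and 0.10, and ST8SIA4, in the list for polysialylation of NCAM1, lies at -0.44. No gene shown passed the test.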

How the data were processed

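Per the submitters' processing notes, the authors made the deposited log2 expression values with RMA in Transcriptome Analysis Console 4.0.1.36. Since RMA forces the probe intensities of all arrays to one distribution before summarizing them, it hides a shift common to most transcripts. The genome build behind the probe sets is not named in the labels.

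Of 24351 probe sets, 2903 controls were left out and 21448 were fitted, dim ones included. In the platform annotation 17709 had 1 symbol, 3739 are unnamed here and 0 had several. For 20 symbols with several probe sets the brightest was used. Groups were compared with limma 3.58.1 (lmFit, then eBayes; R 4.3.3), two-sided, with Benjamini-Hochberg adjustment at 0.05. The fit was tested in 20 simulations of 21448 probe sets with 200 changed, in equal shares of sizes from under 2-fold to over 4-fold. It called 4.80% of the 2-fold changes and 88.6% of the 4-fold changes, and 5.23% of calls were false. The adjusted cutoff for 2-fold changes depends on the larger changes planted beside them, so these shares hold for that mix only. The number of arrays limits the precision.

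The members and the 11 related lists (101 genes, 94 measured) were chosen with earlier results of these data known. From each list the text names up to 3 genes above the limit with the smallest p. UGCG, ST3GAL5, B3GALT4, CASD1, SLC6A2, GALC, GPC3, GPC6, SDC2, NCR3LG1, ROR1 and EGFR were named after their values were seen. So were the genes at an unadjusted p under 0.05, and genes below the limit are named as such. Alternatives were 3 normalizations, 2 filters, a floor, 3 variance settings, the replicate block, arrays left out, kept controls, means of probe sets, other limits and, added after the data were seen, array weights.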

Additional observations from a re-analysis of the deposited data

How the results depend on the processing

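With all arrays kept, no member, no gene of the related lists and no probe set passed an adjusted p of 0.05 in any alternative. At an unadjusted p under 0.05 these settings gave 0 or 1 members. They gave 509 probe sets where only those above the limit were fitted, and at most 1164, with the control sets kept. These counts come from unlike numbers of probe sets fitted. In simulated arrays of the same number, which also held larger changes, 4.80% of 2-fold changes were called. CD276 and CD24 kept their direction in all 17 alternatives, with ranges of 0.023 to 0.080 and -0.41 to -0.081. Only the 3 normalizations and leaving out an array changed these differences, so the other settings could not turn a sign. Leaving out an array also cannot turn the sign of a gene whose groups do not overlap, such as CD276. Single arrays turned the sign of NCAM1 (0.081 without untreated replicate 1; range -0.46 to 0.081), CD47 (0.10 without untreated replicate 1 and 0.019 without treated replicate 2; range -0.26 to 0.10) and L1CAM (-0.016 without treated replicate 1; range -0.016 to 0.23). The replicate block gave 0 calls and 1079 probe sets at an unadjusted p under 0.05, against 1089 without it. Deviations of same-numbered arrays from their group means correlated at 0.022 over probe sets above the limit. With 2 arrays per group this is a single value, and it cannot show whether same-numbered cultures were handled together. The number of members above the limit in untreated cells was 5 at the 90th and 95th percentiles of the negative controls, on each untreated array and with either left out. It was 3 at the 99th percentile (9.32), where CD276 and CD24 dropped below. The setting with weighted arrays was chosen after seeing the data.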

Other observations

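PTPRC, which encodes the leukocyte phosphatase CD45, was bright in this neuroblastoma line, with log2 expression of 12.75 and 12.80 in untreated and 12.71 and 12.57 in treated cells. CD68 was also above the 95th percentile of the negative controls on all 4 arrays. The leukocyte genes CD3E, CD14, ITGAM and HLA-DRA were below that percentile on every array. The 1 probe set per gene does not show which transcript forms gave the signal.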
